A study of Mus musculus with 6 samples.

Results

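Transforming growth factor beta (TGF-β) is a secreted growth factor, and the genes followed here make its 3 ligands (*Tgfb1*, *Tgfb2*, *Tgfb3*), its 3 receptors (*Tgfbr1*, *Tgfbr2*, *Tgfbr3*) and 4 of the Smad proteins that carry its signal (*Smad2*, *Smad3*, *Smad4*, *Smad7*). These 10 genes were picked by symbol from the 54525 gene rows of the count tables, and all 10 were among the 16290 genes with enough counts to be tested. RNA-seq was performed on C2C12, an established line of mouse myoblasts, which can fuse into myotubes with many nuclei. The 3 D0 cultures were myoblasts at day 0, kept in growth medium with fetal bovine serum, and the 3 D5 cultures had spent 5 days in differentiation medium with horse serum. All 6 cultures were labelled with the genotype WT, the treatment None and the cell type Mouse Muscle Myoblasts, so neither group carried an engineered allele or received an added agent. C2C12 is a single immortal line in culture, and nothing in the labels says whether the cultures of a group were grown independently, so the p-values measure the spread between these libraries.

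TGF-β ligands are secreted in a latent form, held by their own propeptide and by latent TGF-β binding proteins, and must be released before they act. A released ligand binds the type II receptor, which recruits and phosphorylates the type I receptor, and the type I receptor phosphorylates SMAD2 and SMAD3. These receptor Smads join SMAD4 and enter the nucleus, while SMAD7 is made in response and shuts the receptors down. In muscle, TGF-β is known for holding back myoblast differentiation and fusion and for driving fibrosis.

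Libraries held 36555048 to 40895840 counts on genes at D0 and 25449759 to 25811300 at D5. ERCC spike-ins, synthetic RNAs added to a sample, took 0.726% to 0.859% of the counts at D0 and 0.72% to 2.09% at D5. All 10 myotube markers rose (median log2 fold change 7.6) and all 8 markers of undifferentiated or cycling cells fell (median -4.65) in edgeR's quasi-likelihood test, although the labels call both groups myoblasts. Markers of other lineages were low or came from 1 gene. Summed blood cell markers were at 3.05 to 3.31 CPM (counts per 1000000 TMM-scaled counts) at D0 and 2.09 to 3.12 CPM at D5, with *Adgre1* at 0 counts, and summed endothelial markers were at 3.31 to 3.59 and 0.517 to 0.884 CPM, with *Tie1* at 0. Summed adipocyte markers were at 18.3 to 20.3 CPM at D0 and 6.99 to 8.39 CPM at D5, with *Cidec* and *Lep* at 0 and *Pparg* at 18.9 ± 0.950 CPM (SD, n = 3) at D0. Osteoblast markers summed to 109 to 114 CPM at D0 and 41.9 to 43.6 CPM at D5, with *Ibsp* at 0 and *Runx2* at 111 ± 2.67 CPM at D0. In these bulk libraries, fewer cells of a type and less RNA per cell cannot be told apart.

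The receptors rose together, while the ligands and the Smads each split. Of the 10 genes, 6 were higher at D5 (*Tgfb1*, *Tgfb3*, *Tgfbr1*, *Tgfbr2*, *Tgfbr3*, *Smad3*), 3 were lower (*Tgfb2*, *Smad2*, *Smad7*), and *Smad4* did not pass the test at an adjusted p of 0.05 in edgeR's quasi-likelihood test. Of all genes tested, 82.9% passed the same threshold, 42.2% higher and 40.8% lower, so 9 of 10 is near the background. In the same 9 genes the 3 D5 libraries lay all above or all below the 3 D0 libraries in CPM, which was true of 83.4% of the genes tested (42.2% above, 41.1% below). A change that passed the test and was over 2-fold was seen in 5 of the 10 and in 35.3% of all genes tested. The median log2 fold change of the 10 genes was 0.80, beside 0.002 over all genes tested. Scaling the libraries to the ERCC spike-ins instead moved the median of all genes to -0.58 and the share of calls that were lower from 49.2% to 67.4%, and under it 2 of the 10 were called higher (*Tgfb3*, *Tgfbr3*) and 2 lower (*Tgfb2*, *Smad2*). Under that scaling 34.1% of all genes tested were called, 11.1% higher and 23% lower, so 4 of 10 is again near the background.

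**Figure D1:**
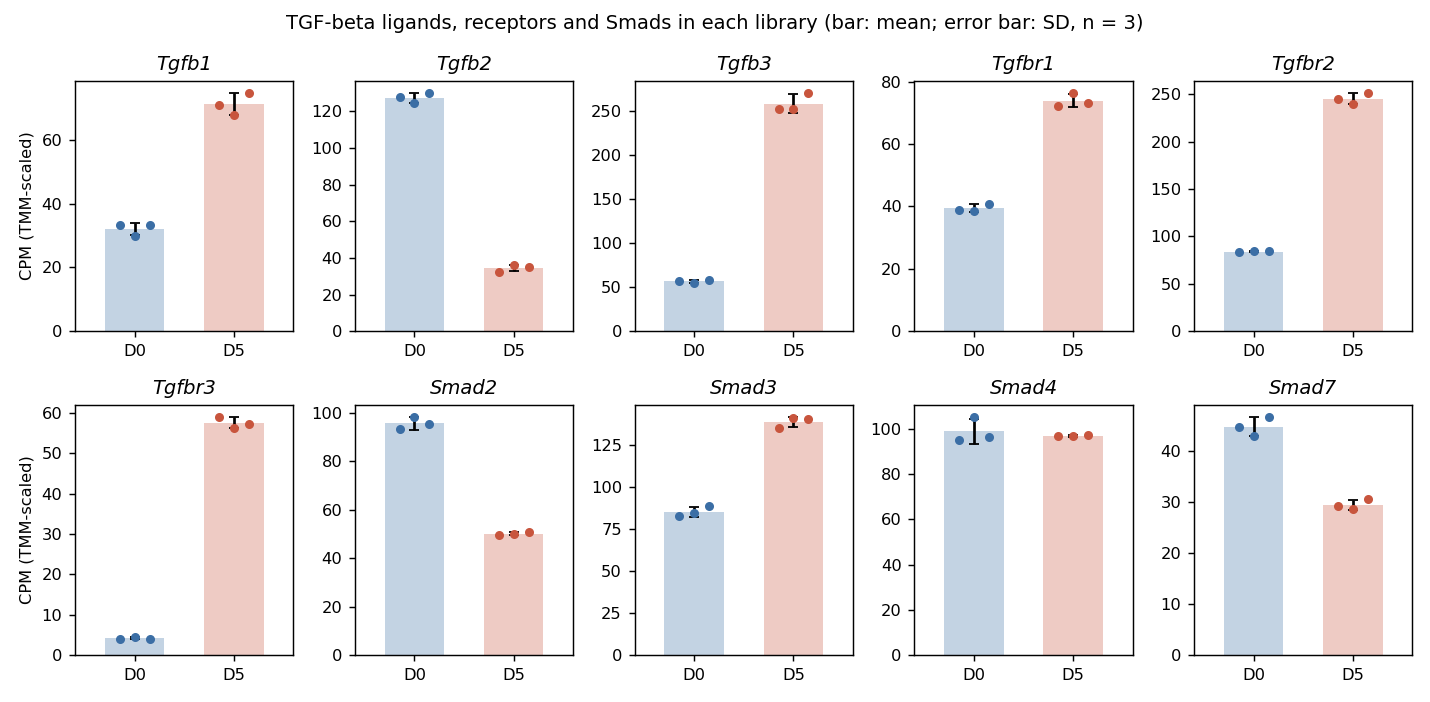
CPM (TMM-scaled, linear axes from 0) of each gene in the 3 D0 and 3 D5 libraries; points are libraries, bars are means and error bars are SD. The groups overlap in *Smad4* only, and *Tgfbr3* goes from 4.21 CPM to 57.6 CPM.

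Promoter sequences are shown for the ligand genes *Tgfb1* and *Tgfb2*, which changed in opposite directions, and for *Tgfbr2*, whose receptor protein binds the ligand first. The RefSeq promoter table for GRCm38.p6 held 5 of the 10 genes. Each sequence is the 250 bases before the RefSeq gene start, 5′ to 3′ on the strand of the gene, at chr7:25686752-25687001 (plus strand), chr1:186705990-186706239 (minus strand) and chr9:116175364-116175613 (minus strand). Capitals mark matches, on either strand, to CAGAC, the core letters of a Smad binding element, and to GGGCGG, the GC box read by Sp1-type factors.
Tgfb1: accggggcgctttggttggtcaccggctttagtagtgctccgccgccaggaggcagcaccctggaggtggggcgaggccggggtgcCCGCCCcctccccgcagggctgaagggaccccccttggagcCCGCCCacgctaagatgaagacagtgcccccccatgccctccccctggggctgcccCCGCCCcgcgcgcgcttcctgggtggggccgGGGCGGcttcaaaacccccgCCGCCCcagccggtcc
Tgfb2: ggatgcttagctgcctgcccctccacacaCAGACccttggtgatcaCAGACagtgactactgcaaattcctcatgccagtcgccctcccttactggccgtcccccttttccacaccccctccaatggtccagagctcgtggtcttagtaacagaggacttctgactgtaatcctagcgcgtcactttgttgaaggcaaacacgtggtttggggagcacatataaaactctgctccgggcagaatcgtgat
Tgfbr2: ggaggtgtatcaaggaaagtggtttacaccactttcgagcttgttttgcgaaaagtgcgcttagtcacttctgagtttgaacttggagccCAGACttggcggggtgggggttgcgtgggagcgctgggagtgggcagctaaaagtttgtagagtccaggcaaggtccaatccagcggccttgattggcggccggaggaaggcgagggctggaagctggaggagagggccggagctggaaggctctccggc
The *Tgfb1* window held 5 matches to GGGCGG and none to CAGAC. The *Tgfb2* window held 2 matches to CAGAC, 204 and 221 bases before the start, and none to GGGCGG. The *Tgfbr2* window held 1 match to CAGAC and none to GGGCGG. Among 32851 windows of 300 bases, which also take in the first bases of the gene, CAGAC was found in 42.2% and GGGCGG in 32.7%. GC content was 75.2% in the *Tgfb1* window, 53.6% in the *Tgfb2* window and 58.4% in the *Tgfbr2* window, beside a median of 52.4% over all windows. The AP-1 letters TGANTCA (6.75% of all windows) and the E box CAGCTG (13%) were in none of the 3, and the general E box CANNTG, which includes CAGCTG and occurs in 66.2% of all windows, was found once, in the *Tgfb2* window. These matches describe the letters of the windows and show no binding.

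Among the ligands, *Tgfb3* rose and *Tgfb2* fell, and *Tgfb1* rose by less than *Tgfb3*. *Tgfb1* (chromosome 7, 25687002 to 25705077, GRCm38) encodes the TGF-β form found most widely. Its level was 33.2, 29.9 and 33.2 CPM in the D0 libraries and 70.7, 67.9 and 74.7 CPM in the D5 libraries. Every D5 library was thus above every D0 library, and the log2 fold change was 1.15 ± 0.05 (SE, n = 3 against 3), and edgeR's quasi-likelihood test gave an adjusted p of 6.8e-20.

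*Tgfb2* (chromosome 1, 186622792 to 186705989) encodes the ligand that binds the type II receptor poorly without the help of TGFBR3. The D0 libraries gave 127.8, 124.6 and 129.9 CPM and the D5 libraries 32.5, 35.9 and 34.9 CPM. All D5 libraries lay far below the D0 libraries, at 27.0% of their level, a log2 fold change of -1.89 ± 0.04 (edgeR adjusted p 4.8e-27). It was the only ligand or receptor gene of the 6 to fall.

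*Tgfb3* (chromosome 12, 86056745 to 86079041) encodes the third ligand. It went from 57.0, 55.1 and 57.7 CPM at D0 to 252, 252 and 271 CPM at D5. The groups were far apart, with a 4.57-fold rise and a log2 fold change of 2.19 ± 0.04 (edgeR adjusted p 5.9e-30), and 9.83% of the genes tested had a higher log2 fold change. Antisense genes cover 12.4% of the exonic length of *Tgfb3*, and the strand setting of the counting was not stated. Neither of these genes (Gm37804, Gm48008) had more than 19 counts in a library, against 2138 to 6743 for *Tgfb3*. Their counts cannot show whether reads in the shared stretch were left out of the *Tgfb3* count.

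Compared per length, in TPM (counts over exonic length, scaled to 1000000 in each library), the ligand mixture changed from mainly *Tgfb2* and *Tgfb3* to mainly *Tgfb3*. *Tgfb2* made up 48.5%, 49.2% and 48.7% of the summed ligand TPM at D0 and 5.96%, 6.59% and 5.97% at D5. *Tgfb3* made up 37.1% ± 0.124 (SD, n = 3) at D0 and 79.2% ± 0.127 at D5. The share of *Tgfb1* was 13.6% to 14.5% at D0 and 14.3% to 14.9% at D5, ranges that overlap. That sum was 151.8 to 161.7 TPM at D0 and 287.4 to 311.1 TPM at D5. The *Tgfb3* to *Tgfb2* ratio within a library, which does not depend on how libraries are scaled, rose 16.9-fold, from 0.76 to 12.9, and was higher in each of the 3 D5 libraries than in any D0 library. An exact two-sided permutation test gave p = 0.1, the smallest that 3 libraries against 3 can give, and 0.1 after adjustment over the 8 ratios tested. With coding length in place of exonic length the *Tgfb3* share was 27.1% at D0 and 70.7% at D5. The *Tgfb1* share depends on the length used: by coding length it was 15.57% to 16.6% at D0 and 20.07% to 20.9% at D5, ranges that do not overlap.

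**Figure D2:**
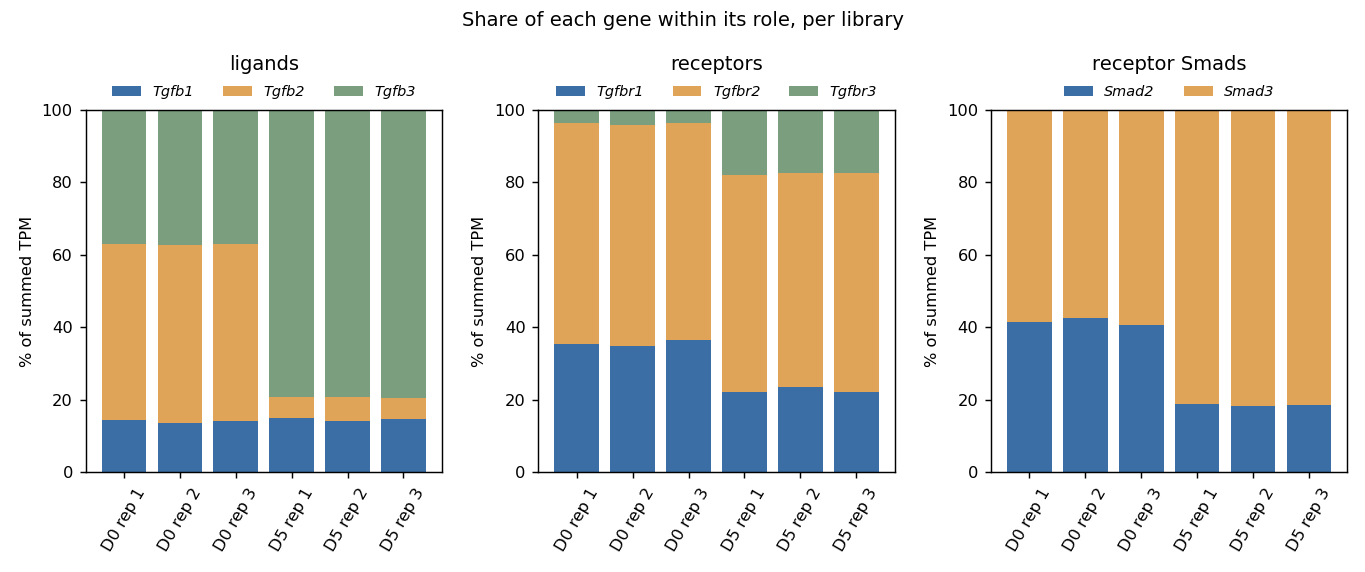
Share of each gene in the summed TPM of its role (% of summed TPM, exonic length) in each of the 6 libraries, for the ligands, the receptors and the receptor Smads. *Tgfb2* shrinks from 48.8% to 6.17% of the ligand sum, *Tgfbr3* grows from 3.81% to 17.6% of the receptor sum, and *Smad2* shrinks from 41.5% to 18.6% of the sum with *Smad3*.

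All 3 receptor genes rose. *Tgfbr1* (chromosome 4, 47353222 to 47414931), the type I receptor kinase that phosphorylates the receptor Smads, was at 38.9, 38.5 and 40.8 CPM at D0 and at 72.1, 76.4 and 73.3 CPM at D5. No D5 library came near the D0 range, and the log2 fold change was 0.91 ± 0.04 (edgeR adjusted p 1.1e-18). This was the smallest rise of the receptors.

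*Tgfbr2* (chromosome 9, 116084293 to 116175360), the type II receptor kinase to which the ligand binds first, was at 83.4, 84.2 and 84.1 CPM at D0. At D5 it was at 245, 240 and 251.5 CPM. The D0 libraries differed by less than 1 CPM from each other, and the 2.93-fold rise (log2 fold change 1.55 ± 0.03, edgeR adjusted p 3.4e-27) was far outside the spread of either group.

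*Tgfbr3* (chromosome 5, 107106570 to 107289629), which encodes betaglycan, a co-receptor without a kinase that presents ligands to TGFBR2, had the largest change of the 10 genes. It was at 4.06, 4.56 and 4.02 CPM in the D0 libraries, from 152, 192 and 162 counts, and at 59.1, 56.4 and 57.4 CPM in the D5 libraries, from 1486, 1390 and 1428 counts. It was thus low but counted in every myoblast library and rose 13.6-fold, a log2 fold change of 3.77 ± 0.06 (edgeR adjusted p 2e-30) that 5.79% of the genes tested exceeded. Gm43422, a gene on the same strand that overlaps it, had at most 38 counts, or at most 5.92% of the *Tgfbr3* count of the same library. Whether reads in this overlap were left out of the *Tgfbr3* count cannot be told from these values.

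Within a library, *Tgfbr2* rose more than *Tgfbr1*, and *Tgfbr3* more than *Tgfbr2*. The *Tgfbr2* to *Tgfbr1* ratio in TPM went from 1.70 to 2.65 and the *Tgfbr3* to *Tgfbr2* ratio from 0.0627 to 0.293, each higher in all D5 libraries than in any D0 library (exact two-sided permutation p = 0.1 for both, the smallest possible). By exonic length *Tgfbr2* held about the same share of the summed receptor TPM, at 59.99% to 60.97% at D0 and 59.1% to 60.6% at D5. By this length the share of *Tgfbr1* fell about as far as that of *Tgfbr3* grew, with 35.6% ± 0.765 (SD, n = 3) at D0 and 22.6% ± 0.848 at D5. The receptor sum was 57.0 to 60.1 TPM at D0 and 151.4 to 158.7 TPM at D5. Both statements on the shares depend on the length used. By coding length the *Tgfbr2* share was 62.36% to 63.48% at D0 and 65.02% to 66.6% at D5, ranges that do not overlap. The mean *Tgfbr1* share then fell from 34.8% to 23.34%, further than the *Tgfbr3* share grew, from 2.203% to 10.77%.

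The receptor Smads went in opposite directions. *Smad2* (chromosome 18, 76241580 to 76310963) was at 93.3, 98.5 and 95.7 CPM at D0 and 49.5, 49.9 and 50.9 CPM at D5. All D5 libraries were close to each other and below D0, at 52.3% of its level (log2 fold change -0.94 ± 0.04, edgeR adjusted p 8.2e-20). *Smad3* (chromosome 9, 63646767 to 63757994), whose protein binds DNA directly where the main form of SMAD2 does not, was at 82.7, 84.1 and 88.5 CPM at D0 and 134.7, 140.5 and 139.9 CPM at D5. Every D5 library was above every D0 library, with a log2 fold change of 0.70 ± 0.04 (edgeR adjusted p 2.1e-17).

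The opposite changes shifted the balance of the pair more than its total. *Smad3* made up 57.5% to 59.5% of the summed TPM of *Smad2* and *Smad3* at D0 and 81.2% to 81.7% at D5. Their sum was 86.9 to 94.3 TPM at D0 and 94.7 to 95.7 TPM at D5. The *Smad3* to *Smad2* ratio rose 3.11-fold, from 1.41 to 4.37, and was higher in each of the 3 D5 libraries than in any at D0 (exact two-sided permutation p = 0.1, the smallest possible). The change of this ratio does not depend on the length used, but its level does: with coding length the 2 genes were even at D0 (log2 ratio -0.04), while *Smad3* was ahead at D5 (log2 ratio 1.60).

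*Smad4* (chromosome 18, 73639009 to 73703780), the partner shared by TGF-β and BMP signaling, was at 94.99, 105.5 and 96.4 CPM at D0 and at 96.7, 96.9 and 97.2 CPM at D5. In CPM the D5 libraries fell inside the D0 range, but in TPM they lay below it, at 79.65 to 82.67 against 87.06 to 98.6 TPM. The log2 fold change was -0.03 ± 0.04, with a 95% interval from -0.11 to 0.05 (edgeR adjusted p 0.47). The interval leaves room for a change of up to 0.11 on the log2 scale. Without D0 replicate 2, the highest library, the value was 0.0085, and with libraries scaled to total counts alone it was -0.12 and passed the test (edgeR adjusted p 0.0072). Because *Smad2* fell, the *Smad4* to *Smad2* ratio in TPM rose 1.87-fold, in 3 of 3 D5 libraries (exact two-sided permutation p = 0.1).

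*Smad7* (chromosome 18, 75367529 to 75395935), the inhibitory Smad that brings ubiquitin ligases to the receptor, was at 44.8, 43.0 and 46.9 CPM at D0 and 29.2, 28.8 and 30.6 CPM at D5. All D5 libraries were below all D0 libraries, at 65.8% of their level (log2 fold change -0.60 ± 0.05, edgeR adjusted p 8.9e-13). The *Smad7* to *Smad3* ratio in TPM fell from 0.647 to 0.262, lower in 3 of 3 D5 libraries than in any D0 library (exact two-sided permutation p = 0.1).

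**Figure D3:**
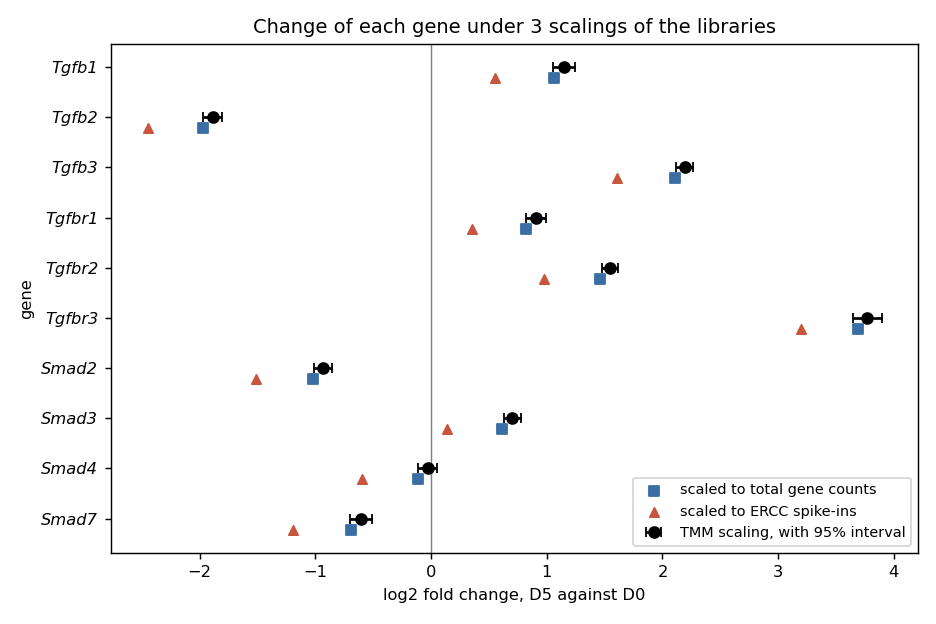
Log2 fold change of each gene, D5 against D0, with libraries scaled by TMM (black, with the 95% interval from edgeR), by total gene counts (blue squares) and by ERCC spike-ins (red triangles). *Smad4* lies at -0.03 by TMM, -0.12 by total counts and -0.60 by spike-ins, and the other 9 genes keep their side of 0.

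The scale of the libraries moves all 10 values by nearly the same amount. The spike-in share of the counts ranged more widely among the D5 than among the D0 libraries, and the amount added to each culture was not given in the sources used here. Under spike-in scaling *Tgfb3* was at 1.61 (edgeR adjusted p 0.0095), *Tgfbr3* at 3.20 (1.9e-07), *Tgfb2* at -2.45 (5.5e-05) and *Smad2* at -1.51 (0.016). The 6 other genes did not pass the test, with *Tgfbr2* at 0.97 (edgeR adjusted p 0.13), *Smad7* at -1.19 (0.064) and *Smad3* at 0.14 (0.86). Ratios within a library are the same under every scaling.

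Ranked by TPM with exonic length, the order of the 10 genes changed. At D0 *Smad4* was highest with a mean of 92.3 TPM, followed by *Tgfb2* at 76.2, *Tgfb3* at 57.9, *Smad3* at 53.2 and *Smad2* at 37.8 TPM. Next came *Tgfbr2* at 35.5 and *Smad7* at 34.4 TPM, whose libraries overlapped, then *Tgfb1* at 22.03 and *Tgfbr1* at 20.9 TPM, which also overlapped, and *Tgfbr3* at 2.23 TPM. At D5 *Tgfb3* was highest with a mean of 237 TPM, followed by *Tgfbr2* at 93.1, *Smad4* at 81.0, *Smad3* at 77.4, *Tgfb1* at 43.8, *Tgfbr1* at 35.1 and *Tgfbr3* at 27.3 TPM. The lowest at D5 were *Smad7* at 20.3 TPM and then *Tgfb2* at 18.4 and *Smad2* at 17.7 TPM, which overlapped. All other neighbours in these orders had ranges that did not overlap. These ranges do not cover the choice of length: with coding length *Smad4* was below *Smad2* at D0 (log2 ratio -0.19). By level, *Tgfb3* went from above 82.2% to above 96.7% of the genes tested, and *Tgfb2* from above 86.8% to above 59.7%.

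Genes listed for ligand latency and activation mostly rose, and the list is not only of genes whose proteins restrain TGF-β. It also holds *Thbs1* and the integrin genes *Itgb5*, *Itgb6*, *Itgb8* and *Itgav*, named after their values were seen. By TMM scaling these rose by 2.19, 2.17, 1.16, 0.71 and 0.12 on the log2 scale, *Thbs1* from 612 ± 18 to 2788 ± 156 CPM. Of 16 listed, 14 were tested, 12 were higher at D5 and 2 were lower in edgeR's test, beside 42.2% higher and 40.8% lower over all genes tested. The median log2 fold change was 1.66, beside 0.002 over all genes tested. Under spike-in scaling 7 were higher and 1 lower, beside 11.1% and 23% of all genes tested. Decorin (*Dcn*), a small proteoglycan that binds and restrains TGF-β, went from 0.375 ± 0.105 to 242 ± 19.1 CPM (log2 fold change 9.32, edgeR adjusted p 4.2e-36). *Lrrc32* encodes GARP, which holds latent TGF-β at the cell surface. It had 1, 1 and 2 counts at D0 and 178, 178 and 177 counts at D5, at least 94.8-fold higher against a floor of 3 counts per library, and the median was the same with this gene set at its bound. *Ltbp2*, a matrix protein of the latent TGF-β binding family, rose from 6.29 ± 0.322 to 132 ± 2.16 CPM (log2 fold change 4.39, edgeR adjusted p 2.2e-34). *Ltbp1* and *Ltbp3* of the same family, named after their values were seen, rose far less, by 0.21 and 0.83 on the log2 scale. *Emilin1*, a matrix glycoprotein that restrains processing of the TGF-β precursor, rose from 0.892 ± 0.0544 to 14.2 ± 1.57 CPM (log2 fold change 3.99, edgeR adjusted p 6.4e-23). The 2 that fell were *Ltbp4* (log2 fold change -0.82, edgeR adjusted p 1.5e-17) and *Furin*, the protease that cleaves the precursor (-0.36, 2.7e-10). *Nrros* and *Fbn2* had at most 1 count in any library.

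Regulators of the receptors showed no common direction. Of 17 listed, 14 were tested, 6 were higher, 6 were lower and 2 did not pass edgeR's test, with a median log2 fold change of 0.02, and 12 of 14 called is near the 82.9% of all genes tested. Under spike-in scaling 1 was higher and 4 were lower, beside 11.1% and 23% of all genes tested. The endocytic adaptor *Dab2* rose from 13.7 ± 0.290 to 56.1 ± 1.98 CPM (log2 fold change 2.03, edgeR adjusted p 8.3e-26). *Cd109*, a TGF-β co-receptor that lowers signaling, fell from 91.3 ± 2.42 to 27.8 ± 0.921 CPM (log2 fold change -1.72, edgeR adjusted p 1.9e-25). *Fkbp1a*, whose protein FKBP12 binds the resting type I receptor, fell from 331.5 ± 2.51 to 166 ± 1.56 CPM (log2 fold change -0.996, edgeR adjusted p 9.6e-23). The ubiquitin ligases *Smurf1* (log2 fold change -0.98, edgeR adjusted p 3.7e-21) and *Smurf2* (-0.72, 6.5e-17), which SMAD7 brings to the receptors, fell with *Smad7*. Smaller rises were those of the deubiquitinase *Usp11* (log2 fold change 0.58, edgeR adjusted p 4.2e-10), of *Zfyve9*, which encodes the Smad anchor SARA (0.55, 4.6e-13), and of *Pmepa1*, which limits Smad signaling (0.54, 1.1e-13), and under spike-in scaling *Zfyve9* was at -0.03 and *Pmepa1* at -0.04. *Acvrl1*, *Bambi* and *Hgs* had at most 7 counts in a library and were not tested, and the annotation holds a duplicate entry at the *Hgs* locus.

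Partners and regulators of the Smads also moved both ways. Of 16 listed, 15 were tested, 4 were higher, 10 were lower and 1 did not pass edgeR's test, with a median log2 fold change of -0.35. The 14 called of 15 are near the 82.9% of all genes tested, of which 42.2% were higher and 40.8% lower. Under spike-in scaling edgeR called 0 higher and 1 lower (*Smad9*, log2 fold change -2.11, edgeR adjusted p 0.00079), and at an unadjusted p under 0.05 it had 0 higher and 5 lower. DESeq2 with its own size factors called 4 higher and 10 lower. *Smad9* and *Smad5* encode receptor Smads of the BMP branch, and fell from 6.61 ± 0.230 to 2.33 ± 0.0912 CPM (log2 fold change -1.50, edgeR adjusted p 8.4e-13) and from 133.7 ± 3.02 to 91.7 ± 2.18 CPM (-0.54, 6.9e-15). The related corepressors *Ski* and *Skil* moved apart: *Skil* fell (log2 fold change -0.59, edgeR adjusted p 3.2e-16) and *Ski* rose (0.48, 1.2e-13), though *Ski* was at -0.10 under spike-in scaling. The corepressor *Tgif2* fell (log2 fold change -0.65, edgeR adjusted p 4.3e-07), and *Smad6*, the other inhibitory Smad, rose from 7.85 ± 0.478 to 12.6 ± 0.963 CPM (0.68, 5.2e-09), opposite in sign to *Smad7*. *Usp9x*, a deubiquitinase of SMAD4, and *Ppm1a*, a phosphatase of receptor Smads, rose (log2 fold changes 0.38 and 0.28, edgeR adjusted p 3.7e-12 and 1.2e-08), and were at -0.18 and -0.28 under spike-in scaling.

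Genes known to be induced by TGF-β in other cells split between large rises and large falls. Of 22 listed, 21 were tested, 10 were higher and 11 lower in edgeR's test, with a median log2 fold change of -0.20, beside 82.9% of all genes tested called in either direction. A change over 2-fold was seen in 15 of the 21 and in 35.3% of all genes tested. Under spike-in scaling 7 were higher and 9 lower, beside 11.1% and 23% of all genes tested. *Ctgf*, a matricellular factor, fell from 1795 ± 43.0 to 58.5 ± 4.01 CPM (log2 fold change -4.94, edgeR adjusted p 5.6e-37). The matrix gene *Postn* (log2 fold change -4.08, edgeR adjusted p 5.2e-34) and the smooth muscle cytoskeletal gene *Tagln* (-3.98, 2.2e-35) also fell. *Cdkn1a*, which encodes the cell-cycle inhibitor p21, rose from 107 ± 3.29 to 2005 ± 54.2 CPM (log2 fold change 4.22, edgeR adjusted p 7.9e-37). The fibrillar collagen genes *Col1a2*, *Col1a1* and *Col3a1* rose by 3.70, 3.51 and 2.77 on the log2 scale (edgeR adjusted p 6.2e-36, 1.9e-33 and 3.6e-33), *Col3a1* from 547 ± 12.4 to 3727 ± 79.4 CPM. Many of these genes also answer to other signals, and the falls came with those of all 8 markers of undifferentiated or cycling cells; their part in the result was not tested. *Tgfbi*, named after its values were seen, had 9 to 14 counts in a library, and without D0 replicate 1 or D5 replicate 1 it lost its call and 9 were higher. The number higher was also 9 with DESeq2, with no filter and with at least 10 counts in every library.

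**Figure D4:**
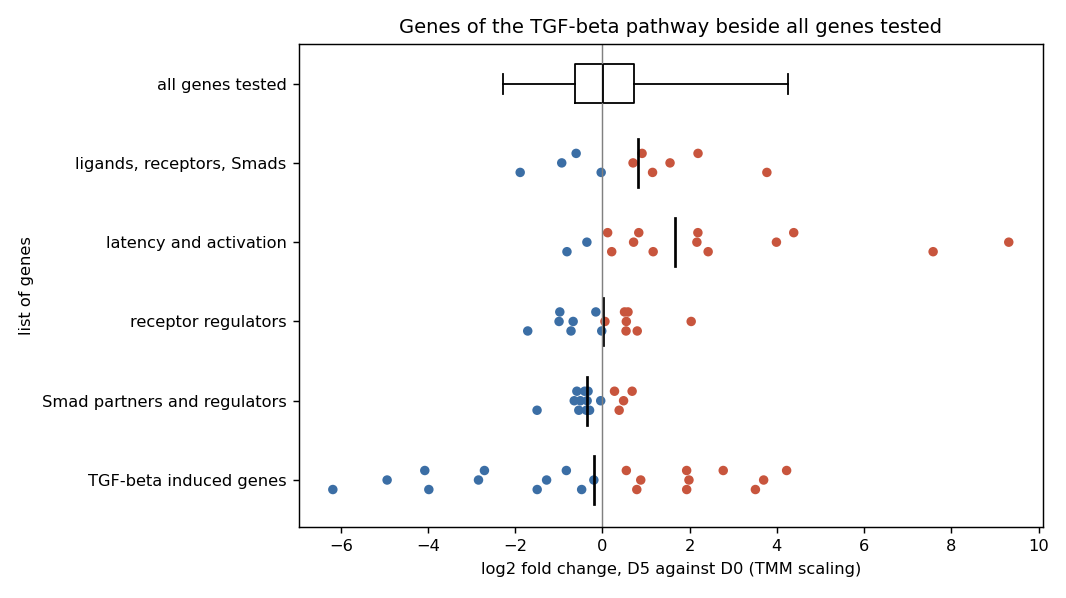
Log2 fold change (D5 against D0, TMM scaling) of the tested genes of each list, 1 point per gene (red above 0, blue below 0) with the list's median as a black line; the box for all 16290 genes tested shows the quartiles and median, with whiskers at percentiles 5 and 95. The latency and activation genes lie mostly to the right (median 1.66), and the TGF-β induced genes spread widely to both sides of 0 (median -0.20).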

How the data were processed

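The authors sequenced RNA from 3 C2C12 cultures per group and deposited raw read counts per gene, made with featureCounts on GRCm38 (mm10), 1 library per file and not normalized. The labels name Tophat2 as aligner and the methods name HISAT2, so which made these counts is not settled. The annotation release, strand setting and handling of reads with several matches are not given in the sources used here. Per the submitters' processing notes DESeq2 1.6.3 was also used. Each file also listed 92 ERCC rows and 1 unnamed row equal to the column total; none of these entered library sizes or tests.

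From these counts edgeR 4.0.16 (R 4.3.3) gave TMM factors, CPM and quasi-likelihood tests after filterByExpr, with Benjamini-Hochberg adjustment over 16290 genes at 0.05. SE is the size of the log2 fold change over the root of F. TPM used the exonic length of GENCODE genes, found for 99.9% of gene rows. Ratios of genes within a library were tested by exact permutation. A gene at 3 counts or fewer was taken as not detected, a limit that covers counting error only. Replicates differed by more than sampling noise (chi-square per degree of freedom 2.28 to 3.71). No 50-base stretch was shared between transcripts of different members. Genes outside the members shared 8.79% of such stretches of *Tgfb3* (2 genes), 3.85% of *Tgfbr3* (1 gene) and 0.77% of *Tgfbr2* (326 genes). How reads in these stretches were counted is not known.

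The members and lists were chosen with earlier results of these data known. All 10 members are named, and from each other pathway list the 4 called genes that rose most and the 4 that fell most, given a mean of 100 counts or more at D0 or D5, except that 1 gene is not reported here. Alternatives were DESeq2 1.42.0, upper-quartile, total-count and ERCC scaling, no filter, a minimum of 10 counts per library, leaving out each library, and the replicate number as a block. The test was run on simulated counts for 14300 genes, of which 102 were changed 2-fold and 98 were changed 1.5-fold. There edgeR recovered 94.1% of 2-fold and 81.6% of 1.5-fold changes, with 2.22% of calls on unchanged genes. In the data 82.9% of the genes tested were called, so these rates do not cover a setting where most genes change.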

Additional observations from a re-analysis of the deposited data

How the results depend on the processing

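All 10 genes kept direction and call with DESeq2, upper-quartile factors, no filter, at least 10 counts in every library and the replicate block. With total-count scaling *Smad4* passed the test at -0.115 (edgeR adjusted p 0.0072). Without D0 replicate 2 *Smad4* was at 0.0085, and over the 6 fits without a library it ranged from -0.074 to 0.0085, while the counts of members called were 6 higher and 3 lower in each. Scaling to ERCC spike-ins changed most: 1813 genes were higher and 3747 lower, 2 members were called higher, and *Tgfb1* (0.556), *Tgfbr1* (0.351), *Tgfbr2* (0.973), *Smad3* (0.135) and *Smad7* (-1.19) no longer passed the test. Under it 7 latency and activation genes were higher and 1 lower, 1 receptor regulator was higher and 4 were lower, and 0 Smad partners were higher and 1 lower. *Zfyve9* (-0.0335), *Pmepa1* (-0.0424), *Ski* (-0.0982), *Ppm1a* (-0.276) and *Usp9x* (-0.18) changed sign under it, none passing the test. Of the members that lost their call, *Smad7* lay further from 0 than by TMM (-1.19 against -0.605). The cause of the lost calls was not tested. The other settings that kept all 6 libraries gave 11494 (at least 10 counts) to 15274 (no filter) calls over all genes, beside 13510. Libraries with the same replicate number correlated at 0.0277 to 0.0645 in their deviations from the group means. Each correlated best with its own number, a hint from the data only, so the numbers were not taken to pair the cultures, and with the replicate block 13558 genes were called. No call of a member changed under the block, and paired differences of the ratios had an exact sign-flip p of 0.25, the smallest that 3 pairs can give. Depth limits *Tgfbr3* most, at 152 to 192 counts per D0 library.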
